A study of Danio rerio with 18 samples.

Results

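The genes described here encode the activators of the circadian clock: *arntl1a*, *arntl1b* and *arntl2* (the *bmal* genes), *clock* and *clockb*, and *npas2*. All 6 genes were found on the array by the RefSeq accession of their probes, with 1 probe for each gene except *clockb*, which had 2, so that 7 of 43603 probes were measured. RefSeq now lists them as *bmal1a*, *bmal1b*, *bmal2*, *clocka*, *clockb* and *npas2*. Liver RNA came from 18 individual naïve adult zebrafish on one-colour arrays, 1 array for each fish and 3 fish for each sex of the AB, Tuebingen (TU) and WIK laboratory strains. The fish were 12 to 18 months old by the labels (the study's methods give a narrower range), had been kept in 1 facility for 2 generations, and were sexed by eye from eggs or testes. Livers of AB were collected in the morning and those of TU and WIK in the afternoon, so AB and time of day cannot be told apart in any comparison below. The p-values measure the spread between individual fish.

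CLOCK and NPAS2 are transcription factors of the bHLH-PAS family that pair with an ARNTL partner, and the pair binds E-box sequences and activates transcription of clock-controlled genes. Among its targets are the *per* and *cry* genes, whose products inhibit the pair, and the *nr1d* genes, whose products repress *arntl* transcription, while ROR receptors activate it. Zebrafish keep duplicated copies of several of these genes, and the clocks of their peripheral tissues, liver included, can respond to light directly.

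Expression is given as log2 of the background-corrected, quantile-normalized signal, and probes with different sequences are not compared for level. Only *arntl1a* and *arntl1b* were well above the local background on 18 of 18 arrays by the scanner's own test. The probe for *arntl2* was well above background on 3 arrays, that for *npas2* on 7, that for *clock* on 9, and each *clockb* probe on 12. The spot of *arntl1a* read 78 to 2272 intensity units against a background of 21 to 37.5, whereas the spot of *arntl1b* read 37 to 226 against 20 to 34. Spots of the other members did not exceed 73 units. Per array, 44.9% to 67.3% of all spots were well above background. All 11 hepatocyte markers on the array, led by *fabp10a*, were well above background on every array. Of the gonad markers, 0 of 9 for ovary and 0 of 7 for testis were. That count takes in fish of the other sex, so it cannot show that livers were free of gonad RNA. The log2 of the summed ovary marker signal was 9.81 to 13.63 in WIK females, compared with 9.16 to 9.25 in WIK males. It was 9.47 to 9.51 in AB females and 9.21 to 10.99 in TU females. The library labelled TU female 3 stood apart: its probe for the egg yolk precursor *vtg1* read 11.77, compared with 18.01 to 18.35 in the other 8 females.

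*arntl1a*, which encodes the partner shared by CLOCK and NPAS2, was lower in AB livers of each sex. The signal of *arntl1a* was 8.21, 8.16 and 7.68 in AB males and 6.85, 8.26 and 7.25 in AB females. In TU it was 10.05, 9.75 and 9.47 in males and 10.01, 9.92 and 9.75 in females. In WIK it was 10.46, 10.29 and 10.04 in males and 10.34, 9.69 and 9.32 in females. Every AB fish lay below every TU and WIK fish, with the highest AB value at 8.26 and the lowest value elsewhere at 9.32. Group means ± SD (n = 3) were 8.02 ± 0.29 in AB males, 7.45 ± 0.73 in AB females, 9.76 ± 0.29 in TU males, 9.89 ± 0.13 in TU females, 10.26 ± 0.21 in WIK males and 9.78 ± 0.52 in WIK females.

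A probe was called different at an adjusted p of at most 0.05 (limma, Benjamini-Hochberg over all probes) and at least a 2-fold change. Over both sexes *arntl1a* was 4.56-fold lower in AB than in the mean of TU and WIK, a log2 difference of -2.19 (SE 0.20, 95% interval -2.61 to -1.77, adjusted p = 7.96e-06, limma). It was the only member of the 7 probes called, where 4.45% of all probes were called and 2.17% were called lower in AB. In males alone the log2 difference of *arntl1a* was -1.99 (SE 0.17, adjusted p = 0.00202, limma), and it was again the only member probe called, beside 2.77% of all probes. In females alone it was -2.38 (SE 0.33, adjusted p = 0.00669, limma), the only member probe called beside 3.68% of all probes. The male difference minus the female difference was 0.39 (95% interval -0.46 to 1.23, adjusted p = 0.813, limma). Without TU female 3 the female difference was -2.42 (adjusted p = 0.0092, limma). The call in females was lost with median scaling of the arrays (log2 difference -1.82, adjusted p = 0.0579) and the calls in each sex were lost with slide as a fixed block, where 1 residual degree of freedom remained (-2.09 in males, adjusted p = 0.292, and -2.71 in females, adjusted p = 0.405).

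**Figure D1:**
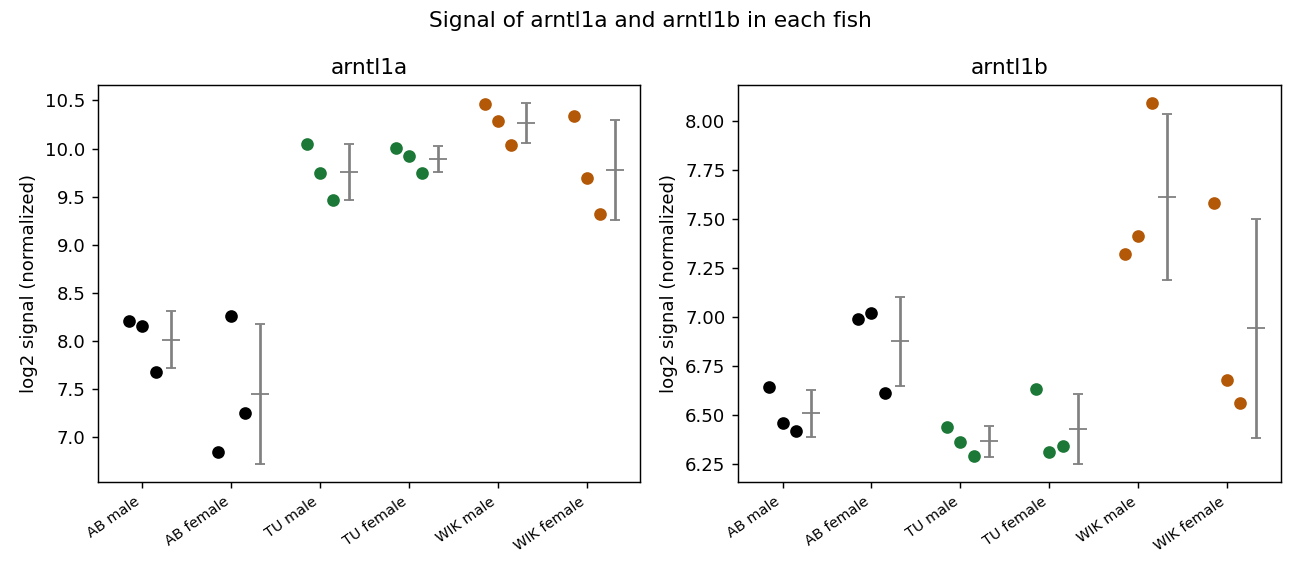
Signal of *arntl1a* (left) and *arntl1b* (right) in each fish, on a log2 axis that differs between the panels. Points are single fish of the 6 groups in the order of replicate number, and grey bars give the group mean and SD (n = 3). For *arntl1a* the 6 AB fish lie at or below 8.26 and the 12 TU and WIK fish at or above 9.32, whereas for *arntl1b* the 3 WIK males lie between 7.32 and 8.09.

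Before normalization AB was also the lowest strain within each sex, but the order of TU and WIK males was reversed by median. Spot signal of *arntl1a* minus its local background was 87.5 to 413 units (median 220) in AB males, compared with 1042 to 1373 (median 1283.5) in TU males and 789.5 to 2247 (median 884) in WIK males. In females it was 56 to 146.5 (median 56) in AB, 394 to 1632 (median 414) in TU and 275 to 472 (median 312) in WIK. These uncorrected values did not overlap between AB and the other strains of the same sex, but the highest AB male, at 413, lay above 3 of the 6 TU and WIK females, which read 275, 312 and 394.

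Fish were also compared within replicate number, since arrays were scanned in rounds that followed that number, except that WIK number 3 was scanned on a day of its own. The value of *arntl1a* in AB minus the mean of TU and WIK was -2.05, -1.86 and -2.07 in males for numbers 1, 2 and 3, and -3.33, -1.54 and -2.28 in females. AB and TU of numbers 1 and 3 lay on the same slide, and there AB minus TU was -1.84 and -1.79 in males and -3.16 and -2.50 in females. All these values were of the same sign, which follows from every AB fish lying below every TU and WIK fish. With slide as a block in the fit of both sexes, *arntl1a* was lower in AB by a log2 difference of -2.40 (adjusted p = 0.00518, limma), and with scan day as a block by -2.21 (adjusted p = 6.06e-05, limma).

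**Figure D2:**
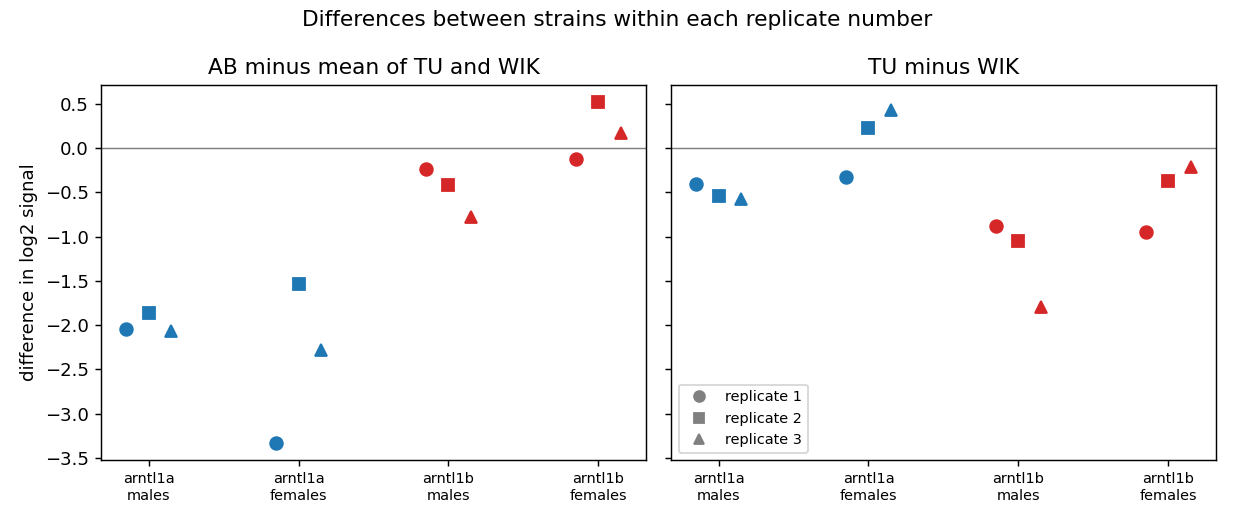
Differences in log2 signal between strains within each replicate number, as AB minus the mean of TU and WIK (left) and TU minus WIK (right). Blue marks *arntl1a* and red *arntl1b*, each symbol is 1 replicate number of 1 sex, and the grey line is 0. The 6 values of *arntl1a* on the left lie between -3.33 and -1.54, and the 6 values of *arntl1b* on the right lie between -1.8 and -0.22.

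From the highest to the lowest group mean, the order of *arntl1a* was WIK male, TU female, WIK female, TU male, AB male and AB female. In 1 fit of the 18 arrays, each of the 8 pairs of an AB group with a TU or WIK group was called for *arntl1a*, with log2 differences of 1.74 to 2.81 in size and adjusted p between 0.000101 and 0.0061 (limma), where 3.84% to 7.63% of all probes were called. None of the 6 pairs among the TU and WIK groups was called for *arntl1a* (adjusted p between 0.613 and 1, limma, and 0 pairs at an unadjusted p under 0.05). AB females and AB males differed in *arntl1a* by -0.56 on the log2 scale (adjusted p = 0.383, limma). Neighbours in the order therefore differed beyond their spread only between TU male and AB male.

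In the separate fit for each strain, the male minus female difference of *arntl1a* was 0.56 in AB (95% interval -0.41 to 1.54, adjusted p = 0.556), -0.13 in TU (-0.56 to 0.29, adjusted p = 0.944) and 0.48 in WIK (-0.20 to 1.17, adjusted p = 0.513, all limma). No member probe was called between the sexes in AB, TU or WIK, where 2.08%, 0% and 1.39% of all probes were called. At an unadjusted p under 0.05 there was 1 member probe in AB, that of *arntl1b*, and 0 in TU and in WIK. The sign of the TU difference turned to 0.67 with median scaling. The TU fit includes TU female 3 and called no probe at all, so the lack of a member call there says little. Over the 6 fits that each left out 1 TU fish, the *arntl1a* difference was -0.28 to 0.01.

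Markers of the exocrine pancreas varied with the same groups. All 17 entries for exocrine pancreas markers on the array were called lower in AB over both sexes, beside 2.17% of all probes. *prss1* entered more than 1 time, under different listed symbols, so the counts, medians and summed signal weight it more than the others. Each marker was taken at its brightest probe, whereas the share of all probes includes many dim ones. Their median log2 difference was -3.79, compared with a median of -0.002 over all probes. Fitted by sex, 7 of 17 were called lower in AB in males (median -4.72), beside 548 of all 43603 probes. In females 3 of 17 were called lower (median -2.38), beside 616 of all 43603 probes. The log2 of their summed signal was 14.14 to 17.55 in the 6 AB fish and 16.63 to 21.44 in the 12 TU and WIK fish, with *prss1*, a trypsin gene, having the highest mean signal of the list. Where the ranges met, AB female 2 had a sum of 17.55 and *arntl1a* at 8.26, whereas WIK female 3 had a sum of 16.63 and *arntl1a* at 9.32, and TU male 2 a sum of 16.84 and *arntl1a* at 9.75. With that sum as a covariate, chosen after the data were seen, the log2 difference of *arntl1a* over both sexes was -2.01 (adjusted p = 0.00801, limma). The sum overlapped little between AB and the other strains, so this fit cannot separate pancreas RNA from strain. Whether pancreas RNA bears on *arntl1a* was not tested. Of the hepatocyte markers 0 of 11 were called over both sexes (median -0.35), beside 4.45% of all probes. In whole liver, fewer cells of a type and less RNA in each cell cannot be told apart.

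**Figure D3:**
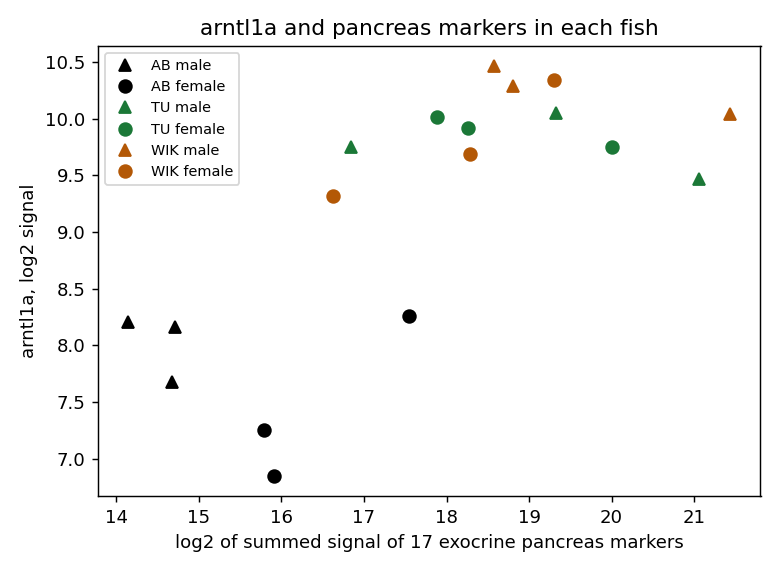
Signal of *arntl1a* (log2) against the log2 of the summed signal of 17 exocrine pancreas marker entries, with 1 point for each of 18 fish. *prss1* is in the sum more than 1 time. Colours are strains, triangles males and circles females. AB fish lie at 14.14 to 17.55 on the horizontal axis and at or below 8.26 on the vertical axis, and the other fish at 16.63 to 21.44 and at or above 9.32.

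*arntl1b*, the duplicate of *arntl1a*, showed another pattern, with its highest values in WIK males. Its signal was 7.32, 7.41 and 8.09 in WIK males, compared with 6.44, 6.36 and 6.29 in TU males and 6.64, 6.46 and 6.42 in AB males. In females it was 7.58, 6.68 and 6.56 in WIK, 6.63, 6.31 and 6.34 in TU and 6.99, 7.02 and 6.61 in AB. WIK males lay above every fish of the other groups except WIK female 1, which at 7.58 lay between them. Group means ± SD (n = 3) were 7.61 ± 0.42 in WIK males, 6.94 ± 0.56 in WIK females, 6.87 ± 0.23 in AB females, 6.51 ± 0.12 in AB males, 6.43 ± 0.18 in TU females and 6.37 ± 0.08 in TU males. Spot signal minus background was 56, 194 and 204 units in WIK males and between 12.5 and 74 in the other 15 fish, so that WIK male 1 lay within the range of the other groups before normalization.

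No difference in the part of the day was stated between TU and WIK, whose livers were both taken after noon. In males *arntl1b* was 2.37-fold lower in TU than in WIK, a log2 difference of -1.24 (SE 0.19, 95% interval -1.70 to -0.79, adjusted p = 0.028, limma), and it was 1 of 7 member probes called, where 1.04% of all probes were called. In females the TU minus WIK difference of *arntl1b* was -0.51 (95% interval -1.14 to 0.11, adjusted p = 0.575, limma), and no member probe was called, where 1% of all probes were called and 1 member probe, of *clockb*, had an unadjusted p under 0.05. The TU minus WIK difference of *arntl1b* in males minus that in females was -0.73 (SE 0.35, adjusted p = 0.767, limma), where 0.0734% of all probes were called and TU female 3 was included. The same comparison for *arntl1a* gave -0.51 in males (95% interval -0.98 to -0.04, adjusted p = 0.326) and 0.11 in females (95% interval -0.78 to 0.99, adjusted p = 0.968, limma), neither of which passed. Within replicate number, TU minus WIK for *arntl1b* was -0.88, -1.05 and -1.80 in males and -0.95, -0.37 and -0.22 in females, number 2 of each sex being a pair on 1 slide. The log2 of the summed intestine marker signal was 9.26, 16.58 and 17.84 in TU males, from lowest to highest. In WIK males it was 9.42 to 10.18. Whether intestine RNA bears on the differences between TU and WIK males was not tested.

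The male call of *arntl1b* was lost with the replicate number as a block, which matches fish by that number (log2 difference -1.24, adjusted p = 0.0784, limma). It was also lost (adjusted p in limma) without AB male 1 (0.0524), AB male 2 (0.0544), WIK male 1 (0.0562), WIK male 2 (0.0808), TU male 1 (0.0877) or TU male 3 (0.0938), and with scan day as a block the log2 difference was -0.96, under the 2-fold limit. The *arntl1b* difference was -1.73 with a smaller normexp offset and -2.95 on the scanner's processed signal scaled at the 75th percentile, where the median of all probes was itself at -0.41.

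The order of *arntl1b* from the highest group mean was WIK male, WIK female, AB female, AB male, TU female and TU male. In the fit of 18 arrays WIK males were above AB males by 1.1 (adjusted p = 0.0152), above TU females by 1.18 (adjusted p = 0.0198) and above TU males by 1.24 (adjusted p = 0.0141, limma), where 4.02%, 1.6% and 1.64% of all probes were called. They were above AB females by 0.73 (adjusted p = 0.0709) and above WIK females by 0.67 (adjusted p = 0.251, limma), which did not pass, and no other pair passed. No neighbours in the order differed beyond their spread. AB against TU and WIK gave a log2 difference for *arntl1b* of -0.15 over both sexes (95% interval -0.47 to 0.18, adjusted p = 0.605, limma). It was -0.48 in males (adjusted p = 0.15) and 0.19 in females (adjusted p = 0.769, limma), and the difference between the sexes was -0.67 (adjusted p = 0.423, limma). No member probe was called for that interaction, where 0.514% of all probes were called and 1 member probe had an unadjusted p under 0.05.

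Male minus female, *arntl1b* was -0.37 in AB (95% interval -0.71 to -0.02, adjusted p = 0.258), -0.06 in TU (adjusted p = 0.958) and 0.67 in WIK (95% interval -0.18 to 1.51, adjusted p = 0.46, limma). The TU value includes TU female 3, and it was -0.12 to 0.04 over the fits that each left out 1 TU fish. The sex difference in AB minus that in WIK was -1.03 (SE 0.35, unadjusted p = 0.0101, adjusted p = 0.286, limma), and no member probe was called there, where 0.383% of all probes were called.

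In the F test over the 3 strains, *arntl1a* (adjusted p = 0.00333, limma) and *arntl1b* (adjusted p = 0.0196, limma) were called in males, 2 of 7 member probes beside 3.66% of all probes. In females *arntl1a* alone was called (adjusted p = 0.0142, limma), 1 of 7 beside 4.73% of all probes, and *arntl1b* was not (adjusted p = 0.508). Without WIK male 2 the count in males was 1, and without AB female 1 the count in females was 0.

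Whether the paralogs responded differently was tested by the difference of their log2 signals in each fish, AB against TU and WIK together, with a two-sided exact permutation test (84 permutations, 8 tests, smallest possible p = 0.0238). *arntl1a* minus *arntl1b* differed between AB and the other strains by -1.51 in males and -2.57 in females, and the values of AB did not overlap those of the other strains (exact permutation p = 0.0238 each, adjusted p = 0.0476). The tests of *arntl1a* against *arntl2*, a more distant copy, are not read here, since *arntl2* was well above background on 3 of 18 arrays. They also stood at the smallest possible p, and the adjusted p of 0.0476 ranks them with the others. That adjusted p therefore leans on tests that are not read, and no call is drawn from it. The test of *arntl1a* against *arntl1b* has a limit of its own. In TU the group means of *arntl1b*, 6.37 in males and 6.43 in females, lay within the 5.97 to 6.69 of the probes near background. A fall as large as that of *arntl1a* could not be seen in *arntl1b*. Whether these paralogs responded differently is therefore not decided by this test. Neither *clock* against *clockb* (adjusted p = 0.285 in males and 0.435 in females) nor *clock* against *npas2* (0.267 and 0.571, exact permutation) passed. With 3 other settings of the background correction or scaling, none of the 8 tests passed after adjustment. In males the values of *arntl1a* minus *arntl1b* then overlapped between AB and the other strains. In females they did not overlap, at differences of -2.98 with a normexp offset of 16, -3.27 on the processed signal and -2.11 with median scaling (exact permutation p = 0.0238 each, adjusted p = 0.0635).

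The partners of ARNTL were dim in all groups. *clock*, which encodes a DNA-binding partner of ARNTL, read 5.99 to 6.50 over the 18 fish. Its group means were 6.09 ± 0.09 in AB males, 6.26 ± 0.19 in AB females, 6.14 ± 0.03 in TU males, 6.26 ± 0.13 in TU females, 6.23 ± 0.04 in WIK males and 6.28 ± 0.20 in WIK females (SD, n = 3). *npas2*, which encodes a CLOCK paralog, read 5.97 to 6.37, with group means from 6.08 ± 0.09 in WIK females to 6.17 ± 0.19 in AB females. *arntl2* read 6.05 to 6.53, with group means from 6.11 ± 0.01 in TU males to 6.27 ± 0.23 in TU females. The whole range of each of these genes was at most 0.51, compared with 3.61 for *arntl1a* and 1.80 for *arntl1b*, and the groups overlapped.

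The 2 probes of *clockb* read 6.08 to 6.58 and 6.06 to 6.69, and they ordered the groups differently. One had its highest group mean in AB females (6.39 ± 0.17) and the other in TU females (6.44 ± 0.17), whereas WIK females were lowest with both (6.25 ± 0.18 and 6.17 ± 0.04). In WIK females 0 of 3 arrays were well above background with either *clockb* probe, and the same held for *npas2*. For *arntl2* this was so in AB females, WIK males and WIK females. The levels of these groups are upper bounds, so that any value which includes them is a difference of measured signal and no fold change.

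Over both sexes the log2 differences between AB and the other strains of the 5 probes for *arntl2*, *clock*, *clockb* and *npas2* lay between -0.05 and 0.06, with 95% intervals within -0.20 to 0.21 and adjusted p between 0.675 and 0.909 (limma). None was called in any comparison, and across them 1 had an unadjusted p under 0.05, the second *clockb* probe in TU against WIK females (adjusted p = 0.42, limma). Differences of measured signal within such intervals could not be detected in these genes. The spots were close to background, and the intervals apply to signals raised by the offset of 50. They therefore understate the change of a dim probe.

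**Figure D4:**
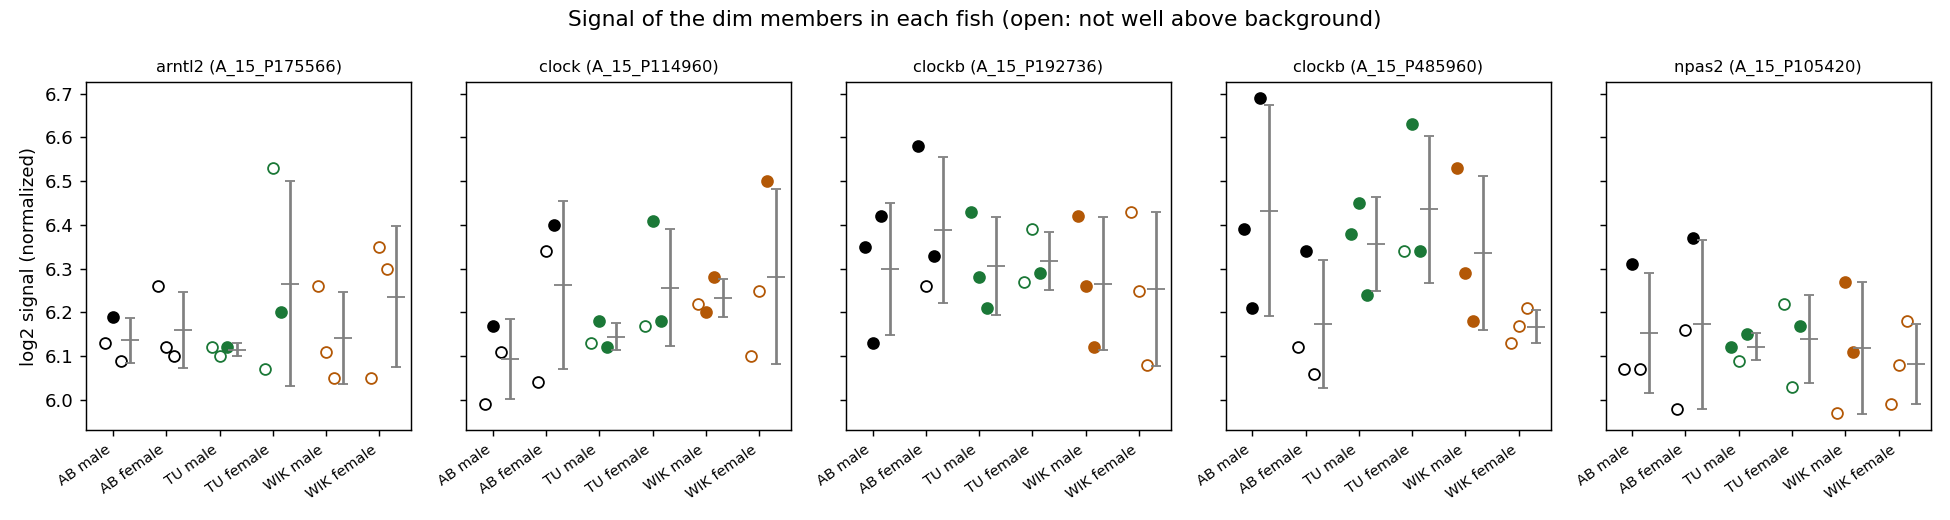
Signal of the 5 probes of *arntl2*, *clock*, *clockb* and *npas2* in each fish, on 1 shared log2 axis. Filled points were well above background and open points were not, and grey bars give the group mean and SD (n = 3). All 5 probes lie between 5.97 and 6.69, and the groups overlap.

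Across the 6 group means, Pearson's r with *arntl1a* was 0.244 for *arntl1b*, 0.251 for *clock*, 0.290 for *arntl2*, -0.773 for *npas2* and 0.218 and -0.732 for the *clockb* probes. Within groups, over 18 fish, *arntl1b* and *arntl1a* correlated at 0.401. Both are descriptions of arrays normalized together, and the group means number only 6.

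Likeness to *arntl1a* over the 6 group means was ranked among 6108 named probes. These were well above background on all arrays, and their group means spanned at least 1 on the log2 scale. The most similar genes were *gstk1*, which encodes a glutathione transferase (r = 0.993), *pcnx4* (0.990), *harbi2* (0.989), *zgc:64002* (0.989) and *aldh8a1*, which encodes an aldehyde dehydrogenase (0.989). Their log2 differences between AB and the other strains were -1.28, -0.91, -1.37, -1.70 and -1.25 in that order. The most opposite were *chchd4a*, a mitochondrial import factor (r = -0.998), *fam136a* (-0.997), *surf4l* (-0.996), *manf*, a secreted endoplasmic reticulum stress protein (-0.995), and *zgc:162964* (-0.994), with differences of 2.06, 1.20, 1.40, 2.19 and 1.65. Within groups the correlations with *arntl1a* were weaker, from 0.15 to 0.356 for the similar genes and from -0.40 to 0.114 for the opposite ones. These genes were picked from the group means and share with *arntl1a* the split of AB from the other strains.

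Other clock genes, the targets and regulators of the activators, were described from a list of 46 genes, of which 40 were on the array and 36 well above background on at least 3 arrays. Over both sexes 4 were called lower and 6 higher in AB, 25% of the 40 beside 4.45% of all probes (2.17% lower and 2.28% higher), and their median log2 difference was 0.03 compared with -0.002 over all probes. Each listed gene was taken at its brightest probe, whereas the share of all probes includes many dim ones. This and the later shares of clock genes therefore compare unlike sets. In males 9 of 40 were called beside 2.77% of all probes, and in females 5 of 40 beside 3.68%.

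Among the repressors, *per1b* was higher in AB by 1.21 (adjusted p = 0.000647) and *cry2* by 1.12 (adjusted p = 0.00947, limma), 2 of 12 *per* and *cry* genes. In the fit of females alone neither *per1b* (adjusted p = 0.139) nor *cry2* (adjusted p = 0.399) passed, and *cry3a* was called lower in AB (-1.41, adjusted p = 0.000328, limma). *bhlhe41*, which encodes a repressor that binds the same E-boxes, was higher in AB by 2.65 (adjusted p = 7.74e-08, limma), with group means of 9.08 in AB males and 10.01 in AB females, compared with 7.80 and 7.07 in TU and 6.24 and 6.48 in WIK. Of 9 nuclear receptors, *nr1d1*, a repressor of *arntl* transcription, was higher by 1.44 (adjusted p = 0.014) and *nr1d2a* was lower by a log2 difference of -1.62 (adjusted p = 0.00245, limma). The 5 *ror* genes on the array were not called. Of these, *rorcb* was lower in AB by a log2 difference of -0.73 (adjusted p = 0.000176, limma) and missed only the 2-fold limit. So did *cry3a* (-0.84, adjusted p = 0.00957), *cry1b* (-0.56, adjusted p = 0.00273) and *cry4* (-0.25, adjusted p = 0.0338, limma). The same held for *cry5* (0.61, adjusted p = 0.0101) and *cry-dash* (0.55, adjusted p = 0.0468, limma). It also held for *timeless* (-0.49, adjusted p = 0.0179) and *dbpb* (0.33, adjusted p = 0.0155, limma). *cry5* was not called in males (0.68, adjusted p = 0.0329) or females (0.55, adjusted p = 0.268, limma). Only the brightest of 3 *cry5* probes was read here. The study reports higher *cry5* expression in AB for each sex. The difference of *rorcb* was -0.82 in males (adjusted p = 0.00979) and -0.64 in females (adjusted p = 0.044, limma). Fitted by sex, *nr1d2a* was called in males (-2.78, adjusted p = 0.00416) and not in females (-0.46, adjusted p = 0.735, limma). *nr1d1* was called in females (2.43, adjusted p = 0.0387) and not in males (0.45, adjusted p = 0.601, limma). The mean of *nr1d2a* in AB females, 8.55, lay between 8.05 in TU and 9.97 in WIK females. That of *nr1d1* in AB males, 8.80, lay between 7.52 in TU and 9.19 in WIK males. However, the interaction with sex was called for 0 of the 40 clock genes, 11 of which had an unadjusted p under 0.05 (limma).

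Of 11 PAR bZIP and *nfil3* genes, whose products compete for D-box sequences, the activators *tefa* (1.89, adjusted p = 7.96e-05) and *dbpa* (1.17, adjusted p = 0.000106) were higher in AB. The repressors *nfil3-5* (-2.48, adjusted p = 1.78e-05) and *nfil3-6* (-1.40, adjusted p = 0.00192, limma) were lower. In the fit of females alone only *tefa* of these was called (1.83, adjusted p = 0.00304, limma). There *dbpa* was under the 2-fold limit (0.66, adjusted p = 0.0224, limma). Neither *nfil3-5* (-1.70, adjusted p = 0.0524) nor *nfil3-6* (-0.59, adjusted p = 0.565, limma) passed in females. *fbxl3a*, which encodes a ubiquitin ligase subunit that targets CRY, was lower with a log2 difference of -1.45 (adjusted p = 1.98e-05, limma), 1 of 6 kinases and ligases. Over the other bHLH-PAS genes, 1 of 12 on the array was called, *hif1al* (-1.81, adjusted p = 0.000383, limma), beside 4.45% of all probes.

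**Figure D5:**
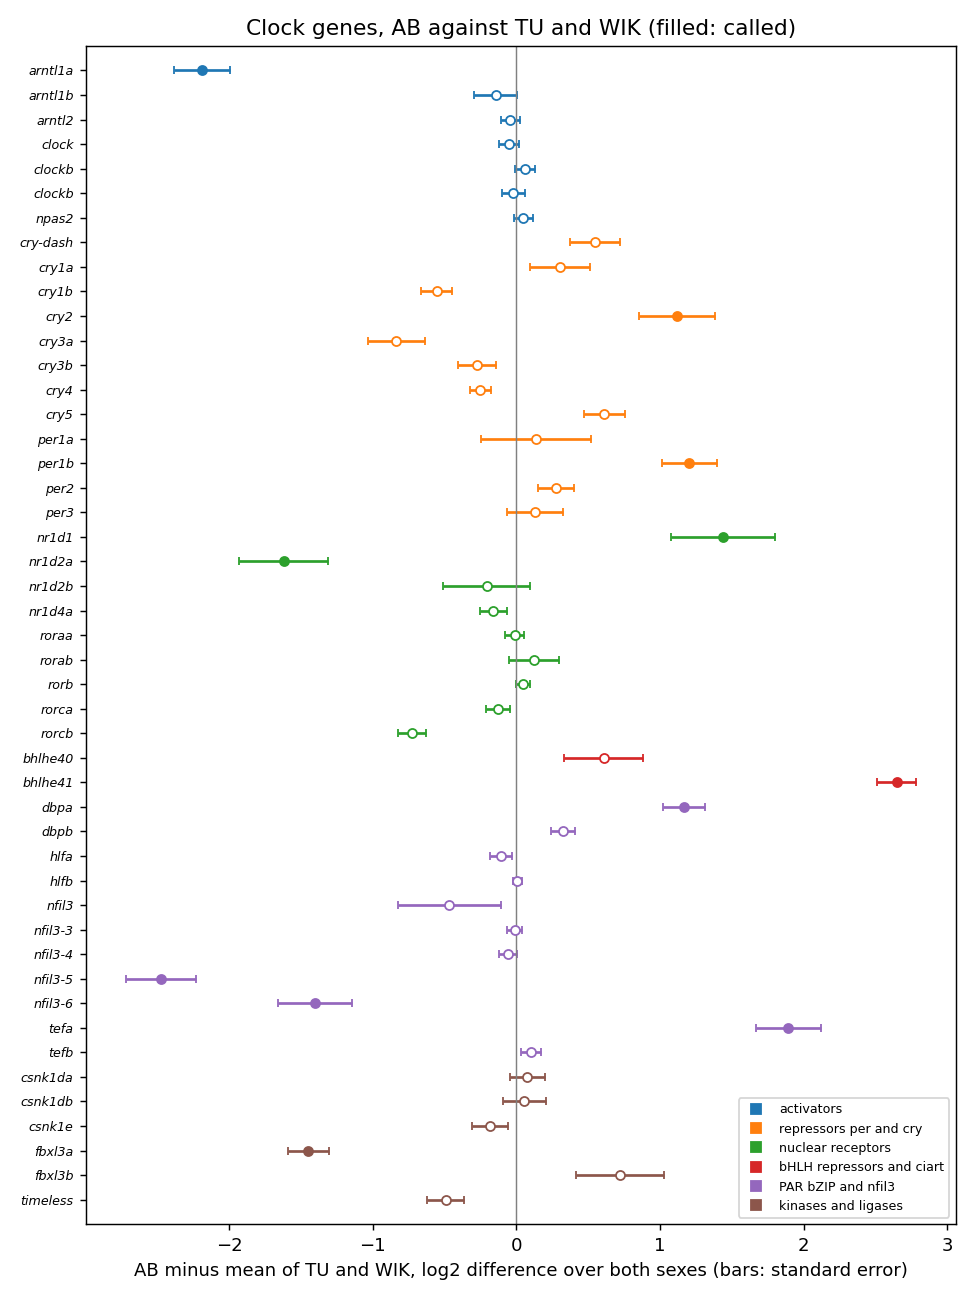
Log2 difference of AB minus the mean of TU and WIK over both sexes for the 7 activator probes and 40 other clock genes, each at its brightest probe, with bars of 1 standard error (n = 18 fish). Colours are gene groups, and filled points were called (adjusted p of at most 0.05 and at least 2-fold). Of the activators *arntl1a* at -2.19 is filled, and of the other genes 4 lower and 6 higher ones.

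Between TU and WIK males, for which no such difference was stated, 5 of 40 clock genes were called beside 1.04% of all probes. *nfil3-5* (-2.89), *nr1d2a* (-2.80) and *nfil3-6* (-1.65) were lower in TU, as was *arntl1b*, and *bhlhe40* (2.54) and *bhlhe41* (1.55) were higher, with adjusted p between 0.00207 and 0.0349 (limma). The intestine marker signal, given above, also differed among these males. Between TU and WIK females 0 of 40 were called beside 1% of all probes, and 7 had an unadjusted p under 0.05 (limma).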

How the data were processed

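The authors deposited Feature Extraction files, in which spots and their surroundings have a linear intensity with no normalization between arrays. Their deposited log2 values, which had been background-corrected, normalized and averaged by accession, served only as an alternative (per array r = 0.9923 to 0.998 with the values here). Tools named per the labels were limma with no version given. Median spot and background intensities were corrected on all spots by normexp (offset 50), quantile-normalized and log2-transformed with limma 3.58.1 in R 4.3.3. Outlier spots and 1417 control spots were left out, and spots of a probe were averaged to 43603 probes. Of these, 26266 (60.2%) were named, 26043 by accession through the RefSeq table of GRCz12tu, whose coordinates were not used. Probe sequences were not used here.

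Strains were fitted in each sex separately, as in the study's methods, sexes in each strain, and both sexes and interactions in 1 fit of 18 arrays. Median spot intensity was 36 to 70.5 against a background of 22 to 32, and 0 spots were saturated. With 3 arrays per group, their number limits the precision. The 18 arrays lay on 6 slides scanned on 4 days, and correlation within slides was estimated on every 20th probe. Deviations from the group means of same-numbered fish correlated above 0.1 in all 3 pairs between TU and WIK males (0.145 to 0.253), TU and WIK females (0.177 to 0.281), AB and TU females (0.131 to 0.254) and the sexes of WIK (0.118 to 0.199), and not in all 3 pairs of the other 5 comparisons of groups. Of 18 pairs of same-numbered fish that differed in both sex and strain, 3 were also over 0.1 (-0.301 to 0.288). The limit of 0.1 only describes these values, and whether the numbers pair the fish was not tested.

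Named are all member probes, listed clock genes called over both sexes, and the 5 genes most like and most unlike *arntl1a*. The genes called between TU and WIK males were named after their values were seen. So were *hif1al* and the clock genes that missed only the 2-fold limit, *cry3a* and *rorcb* among them. Members, lists and rules were chosen with earlier results of these data known. Marker lists without a call between AB and the other strains over both sexes were those for hepatocytes, intestine, ovary, testis, skeletal muscle, erythrocytes and leukocytes. No marker list was tested between TU and WIK. Of the biliary and stellate markers 1 of 8 was called higher in AB, beside 2.28% of all probes. In males alone 2 of 9 leukocyte markers were called lower in AB, beside 548 of all 43603 probes. Alternatives were another offset, the scanner's processed signal at the 75th percentile, median scaling, the deposited log2 table, other cutoffs, a filter on dim probes, eBayes with trend, blocks and leaving out each fish. For *arntl1a* over both sexes the pancreas marker sum as a covariate was added after the data were seen. Plots were made in Python 3.11.15 with matplotlib 3.10.9.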

Additional observations from a re-analysis of the deposited data

How the results depend on the processing

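Over both sexes *arntl1a* stayed lower in AB and called in 13 of 13 alternatives (log2 difference -2.62 to -1.97, adjusted p between 2.72e-06 and 0.00801) and in the 18 fits that each left out 1 fish (-2.39 to -2.04). Those 13 included the pancreas marker sum as a covariate (adjusted p = 0.00801, limma), chosen after the data were seen. In males *arntl1a* was called in 11 of 13 alternatives and all 9 fits without 1 fish (-2.09 to -1.83), and in females in 11 of 13 and all 9 (-2.79 to -2.08). Each of these counts includes the setting without a fold cutoff, which could not lose a call. The male call was lost at a 4-fold cutoff (-1.99, count 0) and with slide as a fixed block (-2.09, count 0), the female call with median scaling (-1.82, count 0) and the slide block (-2.71, count 0). The male TU against WIK call of *arntl1b* was lost with median scaling (-1.21), a 4-fold cutoff (-1.24), slide (-1.05) or scan day (-0.96) as a block, each with a count of 0, and in 6 of 9 fits without 1 fish (-1.39 to -1.0, counts 0 to 1). The F test in males called 0 members with median scaling or the slide block and 1 at 4-fold or with scan day (1 to 2 without 1 fish). In females it called 0 with median scaling, slide or scan day (0 to 1 without 1 fish). At the 4-fold cutoff only the limit changed. The cause of the other losses was not tested. Blocks left fewer residual degrees of freedom, and the fits without 1 fish had fewer fish.

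Replicate numbers were checked for pairing: the deviations of same-numbered fish correlated at -0.067 to 0.374 between the sexes of a strain and -0.057 to 0.281 between strains, and were over 0.1 in all 3 pairs for 4 of 9 pairs of groups, TU and WIK of each sex among them. With the replicate block the male F test called 1 member and the *arntl1b* call was lost (-1.24, adjusted p = 0.0784, count 0), and it changed no other call. Of the paralog tests, 4 had an adjusted p of at most 0.05 in the main setting, those with *arntl2*, which are not read, among them. The count was 0 with the smaller offset of 16, the processed signal or median scaling. It was also 0 without any 1 fish, when fewer permutations leave the adjusted p above the threshold.

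The processed signal moved the median of all probes to -0.17 over both sexes, 0.12 in males and -0.46 in females. Relative to it *arntl1a* was at -2.44, -2.38 and -2.52. Signs turned, with no call, for *arntl1a* in TU against WIK females with scan day (-0.038) and without WIK female 3 (-0.12 to 0.39 over the fish left out), its interaction with median scaling (-0.30), its TU sex difference with median scaling (0.67) and without TU male 3 (-0.28 to 0.010), the TU sex difference of *arntl1b* without TU female 1 (-0.12 to 0.040), and *clockb* as a mean of 2 probes (0.019, against -0.02 at the brighter). Spots near background limit what can be seen of *arntl2*, *clock*, *clockb* and *npas2*, and of a fall in *arntl1b*.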
